A study of Equus caballus with 8 samples.

Results

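Cathepsins are a group of peptidases found mainly in the lysosome, and cystatins are proteins that inhibit the papain-like cysteine cathepsins. The genes described here were those of a list of 10 symbols, 8 cathepsins and the cystatins CST3 and CSTB, that had a row in the deposited table of normalized counts. CSTB had no row and was not analysed here. The named row with the fewest reads held 81 over the 8 libraries, so a missing row does not show absent expression. The other 9 were all tested, out of 15266 named genes in the table and 14907 tested.

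RNA-sequencing was performed on mesenchymal stem cells of bone marrow (BM-MSCs), plastic-adherent stromal cells grown from the sternum of 4 adult Thoroughbred or Thoroughbred-cross horses labelled D, J, L and W. Marrow from each horse was divided, and part was grown untreated and part with 1 ng/ml recombinant human TGF-β2 from isolation until passage 3 or 4 (the study's methods give 3 passages), which gave 4 untreated and 4 TGF-β2-treated libraries. Both groups were grown in low-glucose medium with fetal bovine serum, to which the study's methods add basic fibroblast growth factor. The cells are primary cultures, 1 untreated and 1 treated per horse, so horse and culture cannot be told apart.

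Cathepsins are made as inactive precursors, tagged with mannose 6-phosphate in the Golgi, carried to the lysosome and activated by its low pH. Some are also secreted. The family holds 3 catalytic types. CTSK, CTSB, CTSS, CTSZ, CTSC and CTSO encode cysteine peptidases, CTSD an aspartic peptidase and CTSA a serine carboxypeptidase. CST3 encodes cystatin C, a secreted inhibitor of cysteine cathepsins, and CSTB the inhibitor found in the cytosol. In marrow, cathepsin K is best known from osteoclasts, where it degrades the collagen of bone, and cathepsin S from macrophages and other antigen-presenting cells.

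The untreated libraries held 40044240 to 57228675 counted reads and the treated libraries 39184554 to 46634539. Of 7 listed genes known to respond to TGF-β, 6 were tested and 4 were called higher, among them TGFBI, CTGF and SKIL. The other 2 tested did not pass the test, 1 of them with a negative log2 fold change. Of all tested genes 6.83% were called higher. The stromal surface genes ITGB1, CD44, THY1, NT5E and ENG were detected in all libraries, with a summed level of 138766 to 309522 normalized counts in untreated and 150975 to 250162 in treated cells. Within that sum THY1 was called lower (log2 fold change -2.21), ENG fell by 0.42 (limma, adjusted p = 0.0409, or 0.0695 without the block) and ITGB1 rose by 0.91 on the log2 scale, and CD44 and NT5E did not pass the test. The marker list for leukocytes and macrophages, of which 10 of 14 genes had a row, summed to 561 to 2716 normalized counts in untreated and 412 to 774 in treated cells. CD68 made up most of it in every library. Without CD68 the sum was 110.5 to 698 in untreated and 50.03 to 278 in treated cells, highest in horse L. The endothelial gene PECAM1 had no row.

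A normalized count is the number of reads of a gene divided by a size factor for its library. Group values are means ± SD of normalized counts with n = 4 horses. The fold change is the difference of log2(normalized count + 1), treated minus untreated, from limma with the horse as a block, with its standard error (SE). A gene is said to have risen or fallen where the Benjamini-Hochberg adjusted p over all tested genes was under 0.05, and it is called where the log2 fold change was also beyond 1 in either direction. No correction for transcript length was made, so levels are compared between libraries and not between genes.

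Of the 9 genes, 6 fell after TGF-β2 treatment, none rose and 3 did not pass the test. The genes that fell were CTSK, CTSO, CTSD, CTSA, CTSZ and CST3. By the same test 15.3% of all tested genes fell and 15.7% rose. With the fold change threshold, CST3, CTSK and CTSO were called lower and none was called higher, where 7.31% of all tested genes were called lower and 6.83% higher. Without the horse as a block the same 3 genes were called lower, against 5.87% of all tested genes, and 5 of the 9 fell, against 11.2%. In 5 of the 9 genes (CTSA, CTSC, CTSD, CTSK and CTSO) every treated library lay below every untreated library, and in CTSB every treated library lay above. Among all tested genes, 13.9% separated with the treated libraries lower and 13.9% with them higher. The median log2 fold change of the 9 genes was -1.04, and that of all tested genes 0.01. In 8 genes the treated culture was lower in all 4 horses, and in CTSB it was higher in all 4. Of all 14907 tested genes 7383 had a negative log2 fold change. How many of them had the same sign in all 4 horses was not counted. In bulk RNA, fewer cells of a type and less RNA per cell cannot be told apart.

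**Figure D1:**
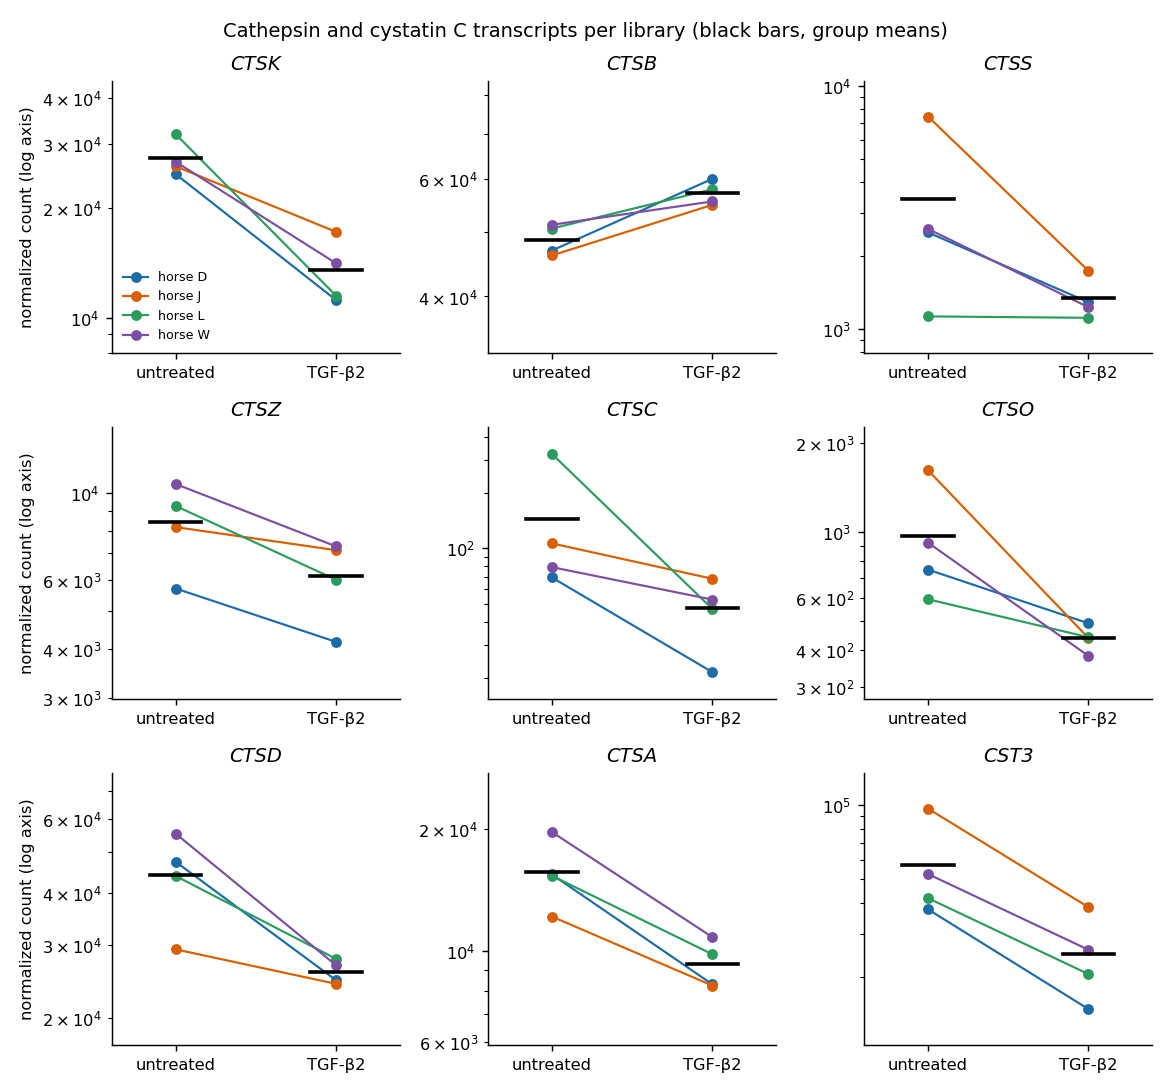
Normalized counts of the 9 genes on a log axis in the untreated and the TGF-β2-treated library of each horse, joined by a line per horse, with black bars at the group means. All lines fall except those of CTSB, and the line of horse L for CTSS is nearly flat, from 1124 to 1109.

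CTSK encodes cathepsin K, a cysteine peptidase that cleaves triple-helical collagen. Untreated cells of horses D, J, L and W had 24770.4, 26027, 31894 and 26788 normalized counts of CTSK, and treated cells had 11171, 17199, 11485 and 14097. The groups did not overlap, and the treated mean, 13488 ± 2800.2, was 49.3% of the untreated mean of 27369.9 ± 3129. The untreated libraries were close to each other, with the highest 1.29 times the lowest, and the treated ones spanned 1.54 times. The log2 fold change of CTSK was -1.04 (SE 0.16) with an adjusted p of 0.00874 from limma, or 0.00406 without the block. With horse D left out the adjusted p was 0.0528 and with horse L left out the log2 fold change was -0.89, so that CTSK was no longer called in these 2 fits. It was called without horse J and without horse W. Of 7 osteoclast markers, CALCR, DCSTAMP and OCSTAMP had no row, TNFRSF11A ranged from 0 to 25.6 normalized counts and OSCAR from 10.7 to 44.6 over the 8 libraries. The other 2, which are not particular to osteoclasts, had higher levels and passed the test. ITGB3 (integrin beta 3) was called higher, from 1432 ± 353 to 9180.5 ± 1149.9 normalized counts, with a change of 2.71 on the log2 scale (limma, adjusted p = 0.000651). NFATC1, a transcription factor needed for osteoclast formation, fell by 0.97 on the log2 scale, from 2712 ± 91.0 to 1394 ± 197 (limma, adjusted p = 0.00361). These 4 genes were named after their values were seen. The part of osteoclasts in the result was not tested.

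CTSB encodes cathepsin B, an abundant cysteine peptidase that cuts both within proteins and from their carboxyl ends. Its normalized counts in horses D, J, L and W were 46838, 46061, 50517 and 51175 in untreated and 59915, 54795, 57816 and 55452 in treated cells. Every treated library was above every untreated one, by a small margin, and CTSB varied less between horses than any other gene of the group, 1.11 times from lowest to highest in untreated and 1.09 times in treated cells. The log2 fold change was 0.23 (SE 0.11), with an adjusted p of 0.175 from limma, so that the difference did not pass the test. DESeq2 on the recovered reads gave an adjusted p of 0.0405 with a term for the horse and 0.00908 without it. The positive sign depended on the scaling. With libraries set to equal totals, the log2 fold change of CTSB was -0.08, while the median of all tested genes moved to -0.30, so that CTSB stayed above the median gene by either scaling.

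CTSS encodes cathepsin S, a cysteine peptidase that stays active at neutral pH and trims the invariant chain of MHC class II. Untreated cells of horses D, J, L and W had 2491, 7466, 1124 and 2576 normalized counts, and treated cells 1286, 1734, 1109 and 1227. The untreated library of horse J was far above the others, and horse L showed almost no difference between its cultures. The change ran from -2.11 in horse J to -0.02 in horse L on the log2 scale. The log2 fold change of CTSS, -1.04 (SE 0.32), had an adjusted p of 0.0588 from limma (0.167 without the block) and did not pass the test. With horse J left out the log2 fold change was -0.68, and with horse L left out it was -1.38 with an adjusted p of 0.0292. DESeq2 with a term for the horse gave an adjusted p of 0.00792, and without it 0.0277. CTSK and CTSS are neighbouring genes in the RefSeq annotation of the horse. CTSK changed most in horse L and least in horse J, and CTSS most in horse J and least in horse L. A link between position and these changes was not tested.

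CTSC encodes cathepsin C, a dipeptidyl peptidase that activates the serine proteases of immune cell granules. It had the fewest reads of the group, from 18 in a treated library to 344 in an untreated one. Horses D, J, L and W had 69.6, 106, 324 and 79.1 normalized counts in untreated and 21.4, 68.5, 47.1 and 52.9 in treated cells. The groups were separated only narrowly, and the untreated library of horse L stood well above the rest. The log2 fold change of CTSC was -1.40 (SE 0.41), with an adjusted p of 0.0514 from limma, or 0.0997 without the block. It depended on single horses, being -0.95 without horse L and -1.66 without horse J, where the adjusted p was 0.0366. DESeq2 with a term for the horse gave 0.00853, and without it 0.0237.

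The genes of leukocytes and macrophages are given beside CTSS and CTSC. All 7 markers that passed the filter had a negative log2 fold change, with a median of -1.20, but 5 did not pass the test. Of all 14907 tested genes 7383 had a negative log2 fold change. FCER1G and MRC1 were called lower, beside 7.31% of all tested genes, MRC1 with an adjusted p of 0.398 from limma without the block. Apart from PTPRC, CD14 and CSF1R, the markers given here were named after their values were seen. PTPRC, the pan-leukocyte gene CD45, had 1.74, 110, 41.5 and 26.4 normalized counts in the untreated cells of horses D, J, L and W, and 1.19 to 23.0 in treated cells. CD68, which encodes a glycoprotein of macrophage lysosomes, had 2437 normalized counts in the untreated library of horse J, the one with the most CTSS, against 451 to 740 in the other untreated libraries. CSF1R, the receptor of macrophage colony-stimulating factor, had 7.83, 1.35, 147 and 62.9 normalized counts in untreated cells of horses D, J, L and W. The library of horse J, highest for CTSS, CD68 and PTPRC, was thus the lowest for CSF1R, and SPI1 had 1.35 there. The untreated library of horse L, highest for CTSC, was also highest for CSF1R, for MRC1 with 181 and for TYROBP with 73.5, and it had the lowest untreated CTSS. CD14, AIF1, C1QA and C1QB had no row, and CD163 had no read in the untreated library of horse J and the treated library of horse D. The part of such cells in the values of CTSS and CTSC was not tested.

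**Figure D2:**
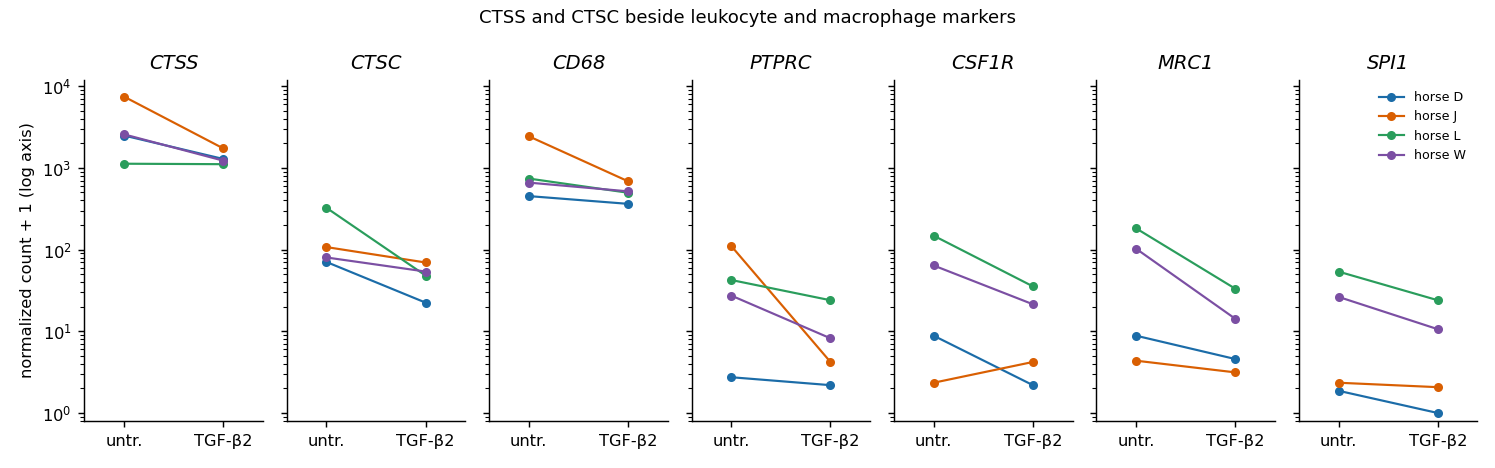
Normalized counts plus 1 on a shared log axis of CTSS, CTSC and 5 leukocyte or macrophage genes in the untreated (untr.) and TGF-β2-treated library of each horse, joined by a line per horse. Horse J has the highest untreated CTSS, CD68 and PTPRC, whereas horse L has the highest untreated CTSC, CSF1R, MRC1 and SPI1.

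CTSZ encodes cathepsin Z, also named cathepsin X, a cysteine carboxypeptidase that removes single amino acids. Its normalized counts were 5693, 8168, 9251 and 10520.3 in untreated cells of horses D, J, L and W, and 4160.5, 7132, 5994 and 7293 in treated cells. The groups overlapped because the horses differed in level, horse D being the lowest in both, but each treated culture was below its untreated partner. CTSZ fell by 0.45 on the log2 scale (SE 0.10, adjusted p = 0.0226 from limma), the smallest fall of the 6 genes. Without the block the adjusted p was 0.206, so the result rests on the comparison within horses. It was not significant with horse D, L or W left out, with adjusted p from 0.0766 to 0.102.

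CTSO encodes cathepsin O, a little-studied cysteine peptidase of the papain family. Horses D, J, L and W had 747, 1617, 593 and 920.2 normalized counts of CTSO in untreated cells, and 492, 439, 441 and 382 in treated cells. The untreated libraries spanned 2.73 times from lowest to highest and the treated ones 1.29 times. CTSO fell to 45.3% of the untreated mean, with a log2 fold change of -1.04 (SE 0.26, adjusted p = 0.0329 from limma). The change was largest in horse J, -1.88, and without that horse it was -0.76 on average (adjusted p = 0.0311). With horse D or W left out the adjusted p was 0.0791 and 0.137. Of the fits with a horse left out, CTSO was called only in that without horse L (log2 fold change -1.25, adjusted p = 0.0393 from limma).

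CTSD encodes cathepsin D, the main aspartic peptidase of the lysosome. Its normalized counts were 47399, 29261, 43840.3 and 55361 in untreated cells of horses D, J, L and W, and 24675, 24195, 27766 and 26799.6 in treated cells. The treated libraries lay in a narrow band, spanning 1.15 times against 1.89 times in untreated cells, and below all untreated ones. CTSD fell by 0.73 on the log2 scale (SE 0.16, adjusted p = 0.0219 from limma, 0.0291 without the block). Horse J, with the lowest untreated level, changed least, by -0.27, and the other horses by -0.66 to -1.05. With horse D, L or W left out the adjusted p was 0.103, 0.0616 and 0.0900, and without horse J it was 0.00766.

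CTSA encodes cathepsin A, a serine carboxypeptidase that also holds the enzymes beta-galactosidase (GLB1) and neuraminidase 1 (NEU1) in a stable complex. Horses D, J, L and W had 15464, 12183, 15349.7 and 19669.9 normalized counts in untreated and 8302, 8241, 9843 and 10846 in treated cells. No treated library reached the lowest untreated one. CTSA fell by 0.74 on the log2 scale (SE 0.10, adjusted p = 0.00576 from limma, 0.0148 without the block), and the change was similar in the 4 horses, from -0.90 to -0.56. It fell in every fit with a horse left out, with an adjusted p of at most 0.0406. The log2 ratio of CTSA to CTSD within a library changed by -0.01 ± 0.20 (SD, n = 4) on average, from -0.29 in horse J to 0.19 in horse W. The partners of CTSA, named after their values were seen, had log2 fold changes of 0.29 (GLB1) and 0.43 (NEU1), with adjusted p of 0.0743 and 0.0505 from limma.

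CST3, the gene of cystatin C, had the lowest adjusted p of the group. Its normalized counts were 37714, 96924, 41882 and 52502 in untreated cells of horses D, J, L and W, and 14827, 38495, 20569 and 25831 in treated cells. The groups overlapped only because treated cells of horse J held more than untreated cells of horse D, and the order of the horses, D, L, W and J from low to high, was the same in both groups. The change was nearly equal in all horses, between -1.35 and -1.02. CST3 fell by 1.18 on the log2 scale (SE 0.12, adjusted p = 0.00303 from limma), to 43.5% of the untreated mean. Without the block the SE was 0.37 and the adjusted p 0.04997. CST3 was called with any single horse left out, with log2 fold changes from -1.23 to -1.13.

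**Figure D3:**
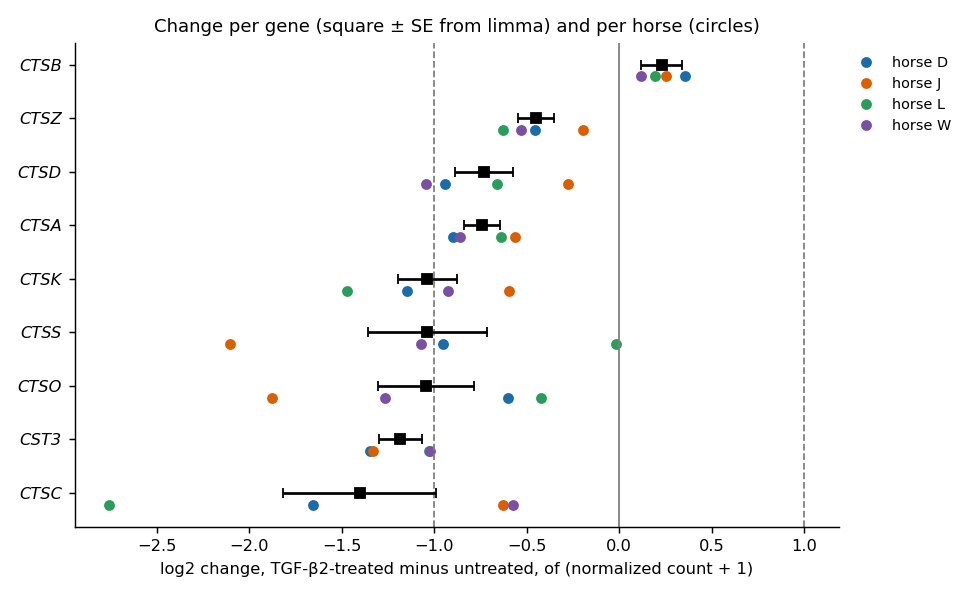
Log2 change of normalized count + 1 after TGF-β2 treatment, ordered from CTSB at the top to CTSC at the bottom. Squares with bars are limma estimates ± SE, circles the change in each horse, and dashed lines mark a log2 change of 1 in either direction. The circles of CST3 and CTSA lie close together, and those of CTSC, CTSS and CTSO are spread widely.

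Ratios between genes in the same library do not depend on how libraries are scaled. Taken over CTSB, whose choice as the reference followed the values, the other 8 transcripts were lower relative to CTSB in the treated culture of all 4 horses. That direction was already set, since CTSB was higher and each of the other 8 lower in all 4 horses. The log2 ratio of CTSB to CST3 changed by 1.41 ± 0.27 (SD, n = 4), from 1.14 to 1.70. For CTSB over CTSK the change was 1.27 ± 0.38, for CTSB over CTSD 0.96 ± 0.34 and for CTSB over CTSA 0.97 ± 0.20. The change of CTSB over CTSS ranged from 0.21 in horse L to 2.36 in horse J. Against the inhibitor CST3, the log2 ratio of CTSZ changed by 0.73 ± 0.35, upward in 4 of 4 horses. The ratio of CTSK to CST3 changed by 0.15 ± 0.48, upward in 3 horses and downward in horse L, and the ratios of CTSS and CTSO to CST3 went up in 2 horses and down in 2. These ratios are given as a description.

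**Figure D4:**
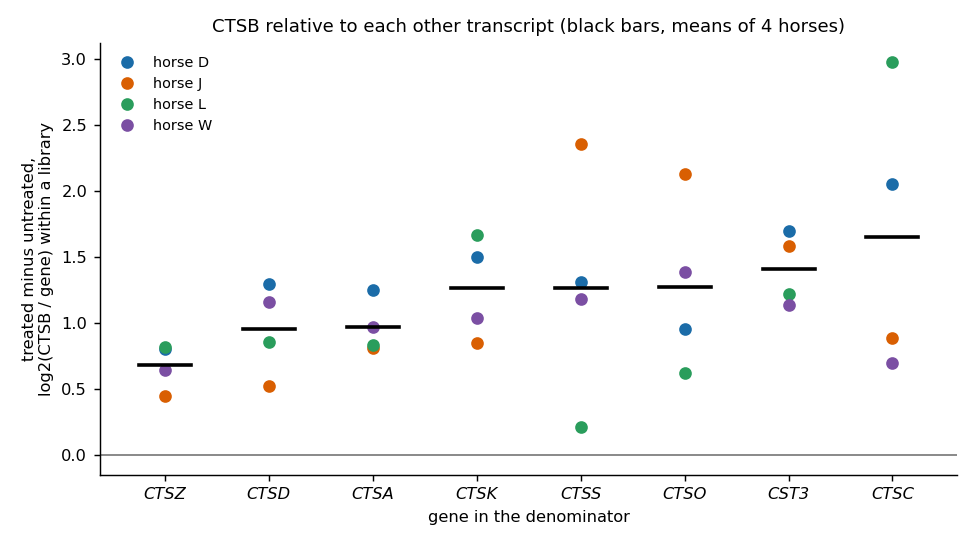
Change of the log2 ratio of CTSB to each other gene within a library, treated minus untreated, 1 circle per horse and a black bar at the mean of 4 horses. All circles are above 0, since CTSB was higher and the other genes lower in every horse. They run from 0.21 for CTSS in horse L to 2.98 for CTSC in horse L.

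None of the other cathepsins and cystatins that were tested passed the test, and KNG1 had a row but did not pass the filter on low counts and was not tested. CTSF, a cysteine cathepsin, had 7142 ± 1892 normalized counts without and 5779 ± 1308 with TGF-β2, and was lower in all 4 horses (log2 fold change -0.29, adjusted p = 0.0895 from limma). CTSL, usually a broadly expressed lysosomal cathepsin, was listed with only 8.08 to 36.8 normalized counts over the 8 libraries, and CTSE, an aspartic peptidase, with 11.3 to 106. CTSG, CTSH, CTSV and CTSW had no row. Of the cystatins, CST6 had 368 ± 110 normalized counts without and 299 ± 96.0 with TGF-β2 (log2 fold change -0.31, adjusted p = 0.280 from limma). CSTA, with 22.3 ± 10.7 and 9.36 ± 4.14, had a log2 fold change of -1.13 with an adjusted p of 0.0914 from limma.

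Among 7 further lysosomal peptidases, 2 fell, beside 15.3% of all tested genes. SCPEP1, a serine carboxypeptidase, went from 9651 ± 1576 to 4087 ± 585 normalized counts and was called, with a log2 fold change of -1.24 (SE 0.07, adjusted p = 0.00122 from limma). TPP1, a tripeptidyl peptidase, fell by 0.84 on the log2 scale (adjusted p = 0.00506), from 26825 ± 5906 to 14847 ± 2238. LGMN (legumain), an asparaginyl endopeptidase that processes several cathepsins and is itself inhibited by cystatin C, had 2231 ± 392 and 2566 ± 158 normalized counts. Its log2 fold change of 0.22 did not pass the test (adjusted p = 0.166 from limma), and the sign was negative, -0.09, under total scaling. The carboxypeptidases PRCP and CPVL, the aspartic peptidase NAPSA and GGH, which trims folate chains, did not pass the test. PRCP, GGH, NAPSA and CPVL had adjusted p of 0.325, 0.111, 0.176 and 0.186.

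Over 87 tested genes of lysosomal lists other than the 9, 32 fell and 7 rose, and 48 did not pass the test. The share that fell, 36.8%, stands beside 15.3% of all tested genes. Without the block 18 fell and 5 rose, 20.7% lower beside 11.2% of all tested genes. Under total scaling 58 fell and 2 rose, which is 66.7% and 2.30%, beside 35.2% and 8.01% of all tested genes. Their median log2 fold change was -0.31. With the fold change threshold 8 were called lower and 1 higher, which is 9.20% and 1.15%, beside 7.31% and 6.83% of all tested genes. Glycosidases and sulfatases, which break down sugar chains, had 10 of 22 lower and 1, HEXA, higher. NAGLU, ARSA and SGSH, of which NAGLU and SGSH degrade heparan sulfate and ARSA sulfatides, were called, with log2 fold changes of -1.29, -1.20 and -1.05. Lipases, phosphatases and activator proteins had 8 of 11 lower and 1, PPT1, higher, and GM2A, the activator of ganglioside breakdown, was called with a log2 fold change of -1.46 (SE 0.11).

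Lysosomal membrane proteins had 6 of 14 lower and 1, SLC17A5, higher, beside 15.3% and 15.7% of all tested genes. The one called was LAPTM5, which is expressed mainly in blood cells, with a log2 fold change of -2.22. ACP5, the acid phosphatase of osteoclasts and macrophages, was called lower among the phosphatases, with -2.94. Both had an adjusted p above 0.05 without the block, 0.306 and 0.133 from limma, and the horses differed widely. LAPTM5 was highest in the untreated library of horse L, and ACP5 in those of horses W and L. LAPTM5 ranged from 14.8 to 270 normalized counts in untreated and from 0 to 120 in treated cells, and ACP5 from 5.39 to 156 and from 1.07 to 26.4. Of the proton pump (V-ATPase) that acidifies the lysosome, 3 of 19 subunit genes fell (ATP6V0A1, ATP6V0D2 and ATP6AP2), 3 rose (ATP6V0A2, ATP6V0E2 and ATP6V1C2) and 13 did not pass the test, with a median log2 fold change of 0.00. The share in each direction, 15.8%, was near the 15.3% and 15.7% of all tested genes. ATP6V0D2, a subunit isoform found in osteoclasts and macrophages, was called lower, from a mean of 265 ± 97.0 to 36.2 ± 16.2 normalized counts, and was lower in all 4 horses.

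Mannose 6-phosphate sorting genes, which deliver cathepsins to the lysosome, had 2 of 6 lower and 1 higher, beside 15.3% and 15.7% of all tested genes. GNPTAB, part of the enzyme that adds the tag, and NAGPA, which uncovers it, fell by 0.78 and 0.58 on the log2 scale (adjusted p = 0.0101 and 0.00845 from limma). SORT1 (sortilin), a sorting receptor that works beside the mannose 6-phosphate receptors, was called higher, from 708 ± 447 to 4358 ± 2269.5 normalized counts, a log2 fold change of 2.70 (SE 0.27, adjusted p = 0.00324). The receptors M6PR and IGF2R did not pass the test. Besides SORT1, ATP6V0D2 and the other called genes, the members of these further lists were named after their values were seen. Of the transcription factors that drive lysosomal genes, MITF fell by 0.89 (adjusted p = 0.0144, or 0.0844 without the block), from 397 ± 142 to 206 ± 48.4 normalized counts, and TFE3, with 3753 ± 314 and 3264 ± 239, did not pass the test (adjusted p = 0.114). TFEB, named after its values were seen, had a log2 fold change of 0.30 and was higher in all 4 horses, but did not pass the test either (adjusted p = 0.107), and under total scaling its value was -0.01.

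**Figure D5:**
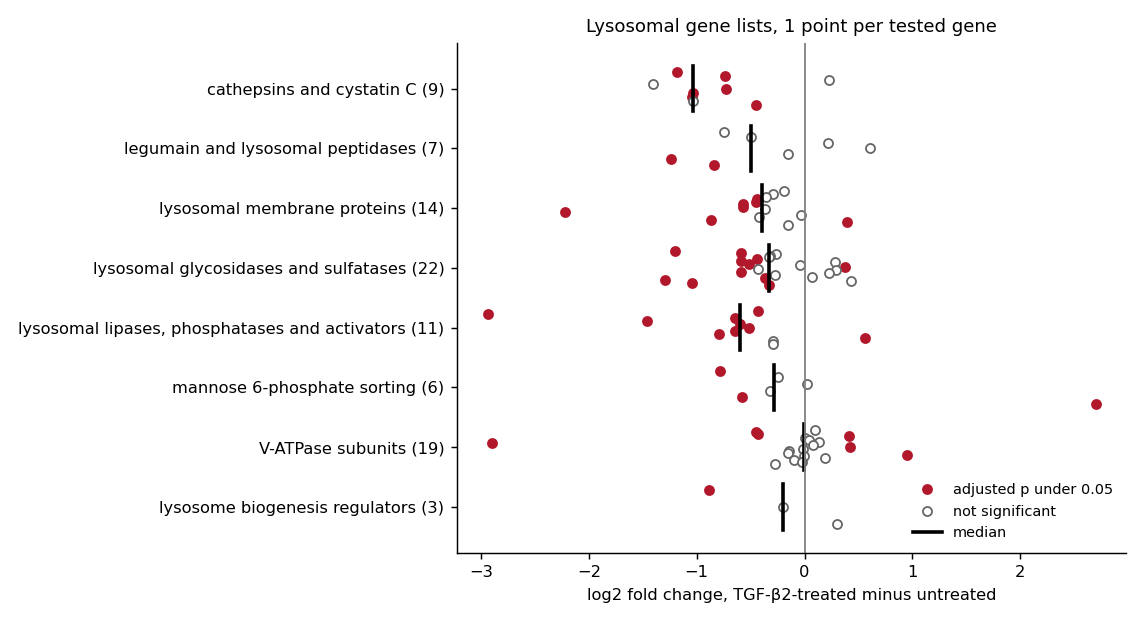
Log2 fold change after TGF-β2 treatment of each tested gene by list, with the number of genes in parentheses; filled points had an adjusted p under 0.05 and black lines are medians. The 9 cathepsin and cystatin genes have a median of -1.04, the V-ATPase subunits of 0.00, and SORT1 is the point at 2.70.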

How the data were processed

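The authors trimmed the reads with Trimmomatic 0.36, mapped them to EquCab 3.0 with STAR 2.5.2b, counted unique hits per gene with featureCounts (Subread 1.5.2) and normalized with DESeq2. The deposited signal, counts divided by a size factor per library, held 15267 rows. The 1 row without a gene name (0.0281% to 0.0531% of reads) was excluded. Of the values, 100% were whole multiples of 1 read per library within 0.01, and on the reads recovered in this way edgeR called 2059 genes. Genes reaching 10 normalized counts in 4 or more libraries were tested with limma 3.58.1 (R 4.3.3, intensity trend) on log2(normalized count + 1), with the horse as a block. The study's methods name no donor term. Deviations from the group means correlated at 0.386 to 0.609 between the 2 libraries of a horse. The mean between horses, -0.16, follows largely from the centring on group means and is not a separate comparison. Alternatives included DESeq2 1.42.0 and edgeR 4.0.16 on the recovered reads, other pseudocounts, filters and scalings, and each horse left out. The fits were tested on simulated data. The members and lists were chosen with earlier results of these data known. Named genes were all members, the other cathepsins, cystatins and peptidases, and in each further list the called genes with the largest change (without a call, the most abundant and the most changed). Other genes were named after their values were seen. Symbols are those of the table.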

Additional observations from a re-analysis of the deposited data

Results flagged for a closer look

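CTSC in the untreated library of horse L, with 324 normalized counts, stood apart from the other untreated libraries, which had 69.6 to 106. The gap to the nearest library was 0.856 of the whole range, above Dixon's critical value for 4 samples. It was the only one of 18 groups of 4 libraries examined (9 genes in each treatment group), and chance flags about 1 group in 20. Without horse L the log2 fold change of CTSC was -0.95 with an adjusted p of 0.106 from limma.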

How the results depend on the processing

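Of the 9 genes, 3 were called with the horse as a block (replicate block) and 3 without it. The number was 7 with libraries set to equal totals (adding CTSA, CTSC, CTSD and CTSS), 5 with DESeq2 with or without a term for the horse, 6 with no fold change threshold, and 1 to 3 with a horse left out, the lowest without horse D, where CST3 alone was called. Total scaling reversed the sign of CTSB, to -0.083, and moved the median gene to -0.30. It changed the share of all called genes that were higher from 48.3% to 27.5%. Among the other lysosomal genes 9 were called with the block and 7 without it, 15 under total scaling and 39 with no fold change threshold. Among all tested genes 1018 were called higher and 1090 lower with the block, and 834 and 875 without it. Under total scaling the numbers were 698 and 1839, and with no fold change threshold 2334 and 2276. Leaving out the block moved the adjusted p of CTSZ and of 16 other lysosomal genes across 0.05. With an adjusted p from limma, DESeq2 or edgeR, CST3 and CTSA fell in 16 of 16 alternative fits, CTSK in 15, CTSD and CTSO in 13, CTSZ in 11, CTSS and CTSC in 4, and CTSB differed in 2. CTSK, CTSO and CTSS had log2 fold changes within 0.05 of the threshold of 1. CTSC had the fewest reads, 18 in its lowest library, and is the most limited by depth.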

Other observations

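Kininogen 1 (KNG1), a plasma protein with cystatin-like domains that inhibit cysteine cathepsins, did not pass the filter and was not tested. Its normalized counts were 42.6, 12.1, 7.54 and 91.3 in untreated cells of horses D, J, L and W. In treated cells 1 read, 1.15 normalized counts, was found in horse L and none in the other 3 horses.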
